A study of Mus musculus with 64 samples.

Results

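The 9 genes described here are Stra8, a gene that germ cells switch on at the approach to meiosis, and 8 genes of the retinoic acid pathway, Aldh1a1, Aldh1a2, Aldh1a3, Crabp1, Cyp26a1, Cyp26b1, Rara and Rarg. They were taken by symbol from the RNA sequencing (RNA-Seq) gene tables of a mouse study of MORC1, a nuclear ATPase needed for transposon silencing in the male germline, and they are 9 of the 26385 genes listed there. No threshold on measured values entered that choice, though the set was proposed with earlier results of these data known. All 9 are listed for each of the 47 RNA-Seq libraries, 20 of sorted germ cells and 27 of whole testis, and each library was made from 1 mouse. Germ cells came from Morc1 tg/tg mutants and their Morc1 tg/+ controls. There were 2 mutants and 2 controls from E16.5, the same numbers from E18.5, 2 and 3 from P2.5, and 3 and 4 from P10.5, where E counts days of gestation and P days after birth. Testes of the Morc1 line were taken at P10.5 (3 tg/tg mutants against 2 tg/+ and 1 wild-type control) and at P14.5 (3 tg/tg and 3 tg/+). At P10.5 there were 2 further controls labelled preliminary, 1 wild type and 1 tg/+. Whether these came from other mice than the main controls was not given in the labels. Further P10.5 testes were from Dnmt3l -/- mice (3, against 3 Dnmt3l +/- and 3 wild type) and from mice labelled Miwi2 -/- (2, against 2 Miwi2 +/-). DNMT3L is a cofactor of de novo DNA methylation and MIWI2 is a nuclear PIWI protein of fetal germ cells. The tg allele is an insertion of a tyrosinase transgene into Morc1 in FVB/N mice, and the line's tg/+ controls carry it too. Up to P2.5 the germ cells came from mice crossed to an Oct4-IRES-eGfp reporter line of mixed background and were sorted by its fluorescence, whereas at P10.5 they were sorted by surface markers without it. A difference between P2.5 and P10.5 therefore cannot be told apart from one between the sorts or the strain backgrounds. Germ cell RNA was depleted of ribosomal RNA, and testis RNA was selected on poly(A), so levels were not tested between both kinds of sample.

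Retinoic acid is made from vitamin A in a pair of oxidation steps. The retinaldehyde dehydrogenases ALDH1A1, ALDH1A2 and ALDH1A3 carry out the last step, CRABP1 binds retinoic acid in the cytoplasm, and CYP26A1 and CYP26B1 break it down. Retinoic acid acts through nuclear receptors, among them RARA and RARG, which bind DNA as heterodimers with retinoid X receptors. In the fetal testis CYP26B1 keeps retinoic acid away from germ cells. After birth retinoic acid starts the differentiation of spermatogonia and induces Stra8, whose product is needed for germ cells to enter meiosis, and the first meiotic spermatocytes appear around P10.5. In the files' build, mm9, Stra8 lies at chr6:34870163-34889342, Crabp1 at chr9:54612555-54620917, Aldh1a1 at chr19:20676451-20717952, Aldh1a2 at chr9:71063596-71144050, Cyp26a1 at chr19:37772298-37776018 and Rara at chr11:98789132-98836256, all on the plus strand. Aldh1a3 (chr7:73535778-73572403), Cyp26b1 (chr6:84521938-84543740) and Rarg (chr15:102065369-102087948) lie on the minus strand.

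The promoters shown belong to the pair of members that fell most in the mutant testes, Stra8 and Crabp1, and to Cyp26a1, whose promoter is known for its retinoic acid response elements. Each run holds the 250 bases before the annotated start in RefSeq (GRCm38.p6), 5′ to 3′ on the gene's strand, which is the plus strand for all shown. Capitals mark the receptor hexamers AGGTCA and its variants (AGTTCA, further the variant GGGTCA, and finally the variant GGTTCA), searched on both strands. The windows are chr6:34920698-34920947 for Stra8, chr19:37697558-37697807 for Cyp26a1 and chr9:54764498-54764747 for Crabp1.
Stra8: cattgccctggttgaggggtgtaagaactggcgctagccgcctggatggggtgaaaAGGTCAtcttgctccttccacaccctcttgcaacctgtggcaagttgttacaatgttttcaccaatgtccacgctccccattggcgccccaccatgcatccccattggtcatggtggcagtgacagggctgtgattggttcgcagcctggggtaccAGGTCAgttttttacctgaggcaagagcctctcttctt
Cyp26a1: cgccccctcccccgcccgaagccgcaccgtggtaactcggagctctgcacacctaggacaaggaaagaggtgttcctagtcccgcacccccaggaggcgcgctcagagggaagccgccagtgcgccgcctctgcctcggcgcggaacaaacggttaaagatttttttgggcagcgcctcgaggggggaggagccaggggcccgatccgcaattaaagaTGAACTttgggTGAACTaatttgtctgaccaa
Crabp1: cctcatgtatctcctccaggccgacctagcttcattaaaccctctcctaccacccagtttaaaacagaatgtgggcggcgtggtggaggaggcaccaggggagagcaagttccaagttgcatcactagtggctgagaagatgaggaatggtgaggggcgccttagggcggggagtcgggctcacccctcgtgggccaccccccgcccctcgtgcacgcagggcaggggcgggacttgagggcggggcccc
The Stra8 window holds AGGTCA at 194 to 189 and at 38 to 33 bases before the start. The Cyp26a1 window holds AGTTCA, read on the other strand, at 32 to 27 and at 21 to 16 bases before the start, and the copies form a direct repeat with 5 bases between them. No hexamer was found in these 250 bases of Crabp1. Any of the 4 hexamers occurred in 38.6% of 32851 windows of this length, AGGTCA in 14%, and a direct repeat with a spacer of 5 bases in 29 windows (0.0883%). Promoter windows were listed for 8 of the 9 members, 13 in all, and 5 windows of 5 members held a hexamer. A match of letters is a description and not evidence of binding.

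Read totals over genes ranged from 2413679 to 14918478 in the germ cell libraries and from 22509570 to 42137954 in the testis libraries. Morc1 was lower in tg/tg than in control libraries at every stage, with log2 fold changes of -1.05 in sorted cells of P10.5 and -1.74 in testis of that age, though at E18.5 the difference had an adjusted p of 0.139, and Dnmt3l was lower by 3.93 in Dnmt3l -/- testis. Piwil4, which encodes MIWI2, was higher and not lower in the libraries labelled Miwi2 -/-. It was 10.7 to 11.5 RPKM (reads scaled to exon length and library size) in them and 6.65 to 7.01 in their controls. The direction of every difference in this line therefore rests on labels that these counts do not check. Among germ cell libraries, E18.5 control replicate 2 stood apart, with no read of Aldh1a1, Aldh1a3, Cyp26a1 or Cyp26b1. Results at E18.5 that rest on it are given with and without it. Genes of neighbouring tissue were seen in some P10.5 testes: summed over 5 epididymal markers, the Dnmt3l line's controls had 0.0510 to 34.5 RPKM and its mutants 0.0831 to 0.222, while the libraries labelled Miwi2 -/- had 10.2 to 10.3 and their Miwi2 +/- controls 2.59 to 2.97. Over 5 fat markers the Miwi2 +/- testes had 25.2 to 28.4 against 5.93 to 6.12. Their part in the results was not tested. P-values below are from the quasi-likelihood test of edgeR on the deposited counts, adjusted after Benjamini and Hochberg across every gene that entered the comparison, and a gene was called changed at an adjusted p under 0.05. Fold changes are log2 ± SE from that fit, and levels are the deposited RPKM. The SE was derived as the absolute log2 fold change over the square root of the test's F statistic.

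In sorted germ cells the pathway was represented mainly by the carrier, a receptor and 1 synthetic enzyme. Over the 20 libraries the median level per length was 30.2 RPKM for Crabp1, 18.2 for Stra8, 13.3 for Rara, 10.52 for Aldh1a2, 5.94 for Rarg and 2.63 for Aldh1a1. Cyp26b1 (0.728), Aldh1a3 (0.628) and Cyp26a1 (0.450) lay under 1 RPKM, and Cyp26a1 had no read in 3 libraries. Ranges of neighbours in this order overlapped: Crabp1 spanned 6.31 to 49.7 and Stra8 0.868 to 48.4 RPKM. The order pools stages and did not hold at each of them: at E16.5 control Aldh1a2 (24.0 and 31.3 RPKM) exceeded Crabp1 (16.6 and 19.11) and Stra8 (2.55 and 3.54). Whole testis had another order. Aldh1a1, a Sertoli cell enzyme in the young testis, had the highest median, 435 RPKM, followed by Cyp26b1 (72.0), Crabp1 (58.9), Aldh1a2 (45.0), Stra8 (43.0), Rara (33.5), Rarg (7.53), Aldh1a3 (3.92) and Cyp26a1 (1.57). Aldh1a1 and Cyp26b1, both high in testis, were thus among the low members in the sorted cells.

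**Figure D1:**
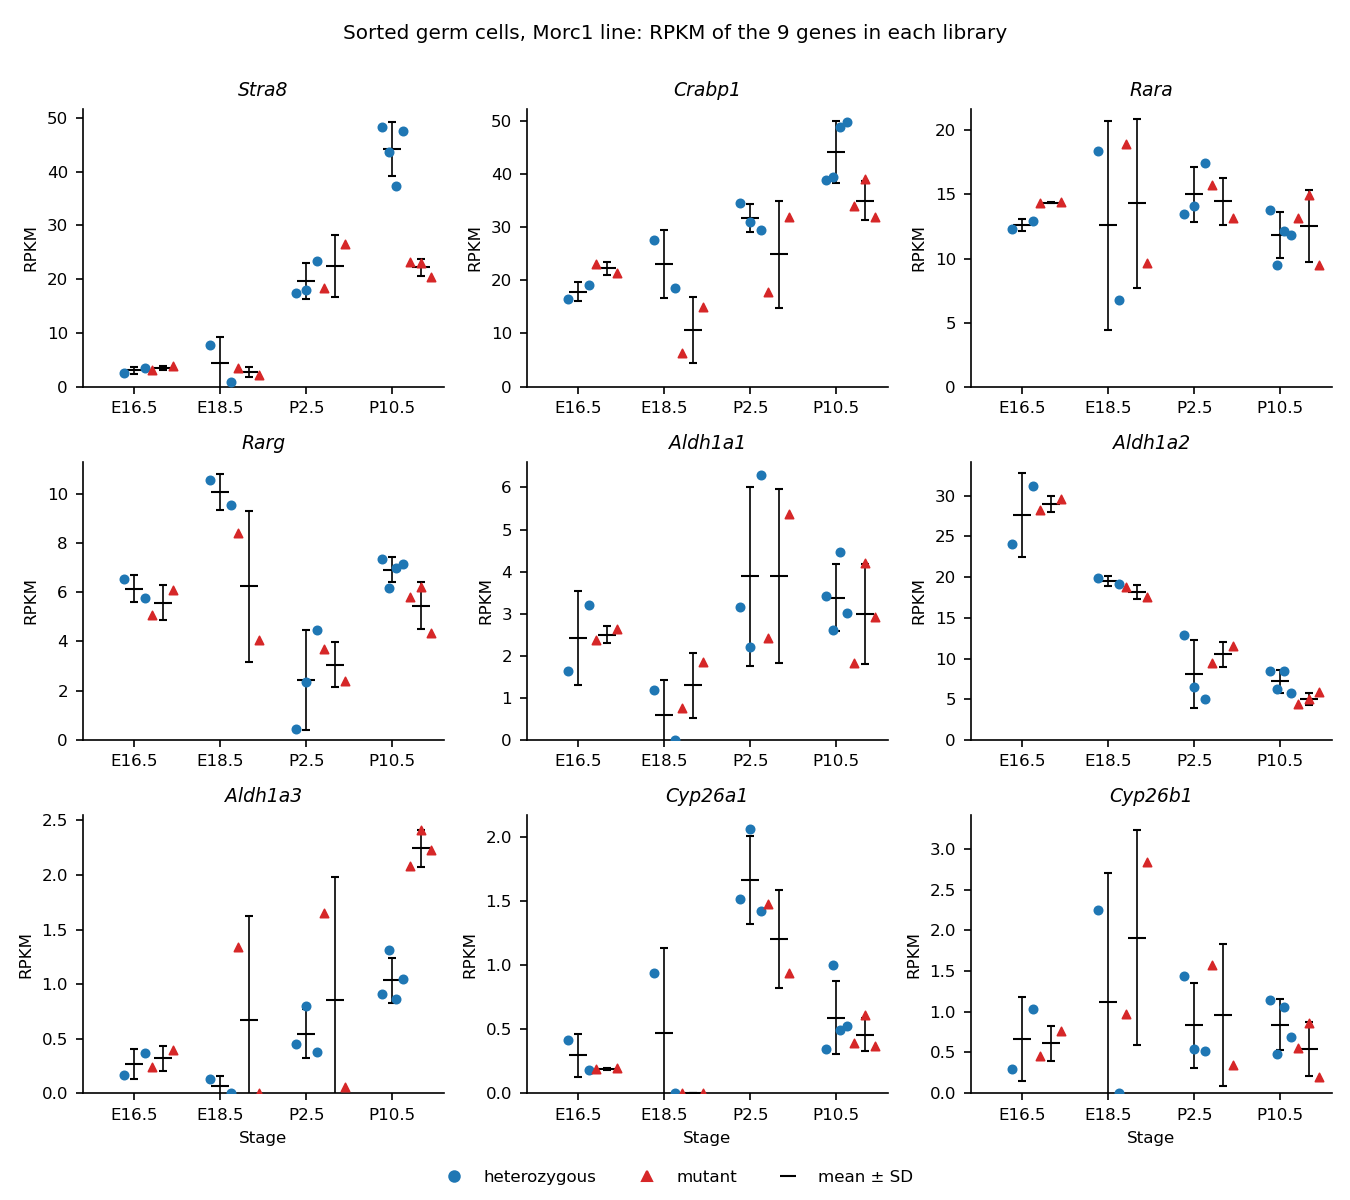
Level in RPKM of the 9 genes in sorted germ cells, 1 panel per gene, by stage on the x axis; points are libraries (1 mouse each) of Morc1 tg/+ controls and tg/tg mutants, and bars are the mean ± SD, drawn no lower than 0. At P10.5 the tg/tg libraries lie below every control for Stra8 (20.3 to 23.1 against 37.4 to 48.4) and above every control for Aldh1a3.

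Stra8 rose through germ cell development in the controls. The E16.5 libraries had 2.55 and 3.54 RPKM and the E18.5 libraries 7.81 and 0.868, followed by 17.4, 18.0 and 23.5 at P2.5, and 48.4, 43.6, 37.4 and 47.6 at P10.5. The 2 libraries at E18.5 lay on either side of the E16.5 pair, and above that age the stages did not overlap. From E18.5 to P2.5 Stra8 rose by 2.08 ± 0.44 (adjusted p = 0.00162), by 1.26 without E18.5 control replicate 2 (0.000838) and by 4.19 without replicate 1. From P2.5 to P10.5 it rose by 1.46 ± 0.32 (0.00283). From E16.5 to E18.5 it was not called, yet without that same replicate it rose by 1.26 (0.00230), and without E18.5 control replicate 1 it fell by 1.67 (0.00425). Over these 3 steps 0, 4 and 3 of the 9 genes were called, where 18.7%, 39.1% and 27.6% of all genes were. Without E18.5 control replicate 2 the first counts were 1 and 3, and without replicate 1 they were 5 and 8. For the first step 1 member had an unadjusted p under 0.05 and DESeq2 called 0. RPKM and fitted fold changes differ in scale across stages: from P2.5 to P10.5 the median log2 ratio of RPKM over genes was -0.19, against 0.02 in the fit.

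In tg/tg germ cells Stra8 was lower at P10.5, by 49.9% in RPKM, and was not called at the earlier stages. The mutant libraries of E16.5 had 3.18 and 3.77 RPKM, those of E18.5 had 3.43 and 2.10, and those of P2.5 had 18.3 and 26.6. These values lay within or above the control range at each stage, and the fitted differences were 0.12, -0.47 and 0.17, none of them called. The E18.5 difference turned with the control library left out, from -1.30 ± 0.89 without control replicate 2 to 1.63 ± 1.62 without control replicate 1, neither of them called. At P10.5 they were 23.1, 23.0 and 20.3, below all 4 controls. The mean was 22.2 ± 1.60 (SD, n = 3) against 44.2 ± 5.01 RPKM (n = 4), a fitted change of -1.08 ± 0.10 (adjusted p = 1.4e-08). The mutant level at P10.5 overlapped that of control germ cells at P2.5. Cells sorted at P10.5 are a mix of germ cell stages, so fewer cells with Stra8 and less RNA per cell cannot be told apart. The difference of the Morc1 effects at P10.5 and P2.5, a comparison chosen after the data were seen, was -1.26 ± 0.22 for Stra8 (adjusted p = 0.0119, where 0.451% of genes were called), with an adjusted p of 0.077 when replicate numbers were a block. Stra8 was the 1 member called in it.

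Before P10.5 none of the members was called in tg/tg germ cells. The counts were 0 of 8 tested at E16.5, 0 of 7 at E18.5 and 0 of 9 at P2.5, in comparisons that called 0.421%, 0.0416% and 0.0486% of all genes by edgeR. None of the members had an unadjusted p under 0.05 at these stages, and DESeq2 called 0 at each. At E18.5 the count was also 0 without control replicate 2, and 1 (Cyp26b1) without control replicate 1. At P10.5 edgeR called 5 of 9, with 1 higher and 4 lower, where 12.2% of all 14019 genes tested were called, 6.43% higher and 5.79% lower. The groups' RPKM ranges did not overlap for 2 members, Stra8 and Aldh1a3, against 24% of genes. Without control replicate 3 or mutant replicate 1 the count called was 2, and without control replicate 1 or 4 or mutant replicate 3, or with the replicate block, it was 3. Markers of other cell types also moved in these sorted cells: 9 Sertoli cell genes summed to 50.8 to 104 RPKM in mutants and 76.6 to 128 in controls, with 3 called lower, and peritubular and stromal genes to 12.2 to 13.2 against 8.88 to 9.78, with 2 of 6 called higher. Their part in the members' results was not tested. The median log2 fold change was -0.42 over the members and 0.00 over all genes.

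In whole testis at P10.5 the Stra8 deficit of tg/tg mice was as clear. Controls had 36.4 (wild type), 28.3 and 35.1 RPKM (tg/+), the preliminary controls 27.5 and 27.8, and the mutants 13.2, 10.3 and 12.3. Every mutant lay below every control. Mean Stra8 was 11.9 ± 1.47 (SD, n = 3) against 33.2 ± 4.36 RPKM (n = 3), a change of -1.46 ± 0.10 (adjusted p = 1.38e-05). In bulk testis, as in the sorted cells, fewer cells of a type and less RNA per cell cannot be told apart. Summed levels of the 8 germ cell marker genes listed were 225 to 254 RPKM in these mutants and 333 to 338 in the controls, with 6 of 8 called lower, and the part of this in the Stra8 result was not tested. In the sorted P10.5 cells the same sum was 522 to 596 in mutants and 449 to 528 in controls, with 2 of 8 called higher and none lower.

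At P14.5 Stra8 was 67.3, 66.8 and 61.6 RPKM in the controls and 48.8, 43.0 and 33.1 in tg/tg testis. The ranges remained apart, with means of 65.2 ± 3.14 and 41.6 ± 7.93 (SD, n = 3 each) and a change of -0.64 ± 0.12 (adjusted p = 0.00342). Between P10.5 and P14.5 Stra8 rose by 0.97 in control testis (8.84e-06) and by 1.79 ± 0.13 in mutant testis (2.74e-07). The Morc1 effect was smaller at P14.5 than at P10.5 by 0.81 ± 0.17 (adjusted p = 0.00904, where 8.22% of genes were called in this test). Germ cell marker sums at P14.5 were 325 to 360 RPKM in mutants and 554 to 654 in controls, and 5 of 5 pachytene spermatocyte genes tested were called lower in the mutants. The part of cell make-up in the Stra8 result at P14.5, and in its difference from P10.5, was not tested.

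The largest Stra8 difference was in Dnmt3l -/- testis. Wild-type controls had 48.0, 61.4 and 44.6 RPKM, Dnmt3l +/- controls 63.0, 55.5 and 43.0, and Dnmt3l -/- testes 7.12, 7.58 and 12.4. All 3 mutants were below all 6 controls, and the controls of both genotypes overlapped. Stra8 was 9.03 ± 2.92 (SD, n = 3) against 52.6 ± 8.62 RPKM (n = 6), a change of -2.49 ± 0.19 (adjusted p = 9.78e-07) or 82.8% less in RPKM. The Morc1 and Dnmt3l effects at P10.5, each against its own line's controls, differed by 0.98 ± 0.24 (adjusted p = 0.0102, where 17.6% of genes were called). The summed germ cell markers of these testes were 178 to 208 RPKM in Dnmt3l -/- and 419 to 536 in the controls, with 7 of 8 called lower and Dppa4 called higher (0.62). In the libraries labelled Miwi2 -/- Stra8 was 67.0 and 70.3 RPKM against 82.4 and 79.8. The ranges did not overlap, but the difference of -0.26 ± 0.07 was not called (adjusted p = 0.0904), though it was by DESeq2 (0.0296). It was also called with the replicate block (4.4e-07). That fit leaves little from which to estimate spread, and the replicate numbers were not taken as pairs. Without control replicate 2 the difference was -0.28. The germ cell sums of these libraries were 445 to 450 and 437 to 451 RPKM.

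**Figure D2:**
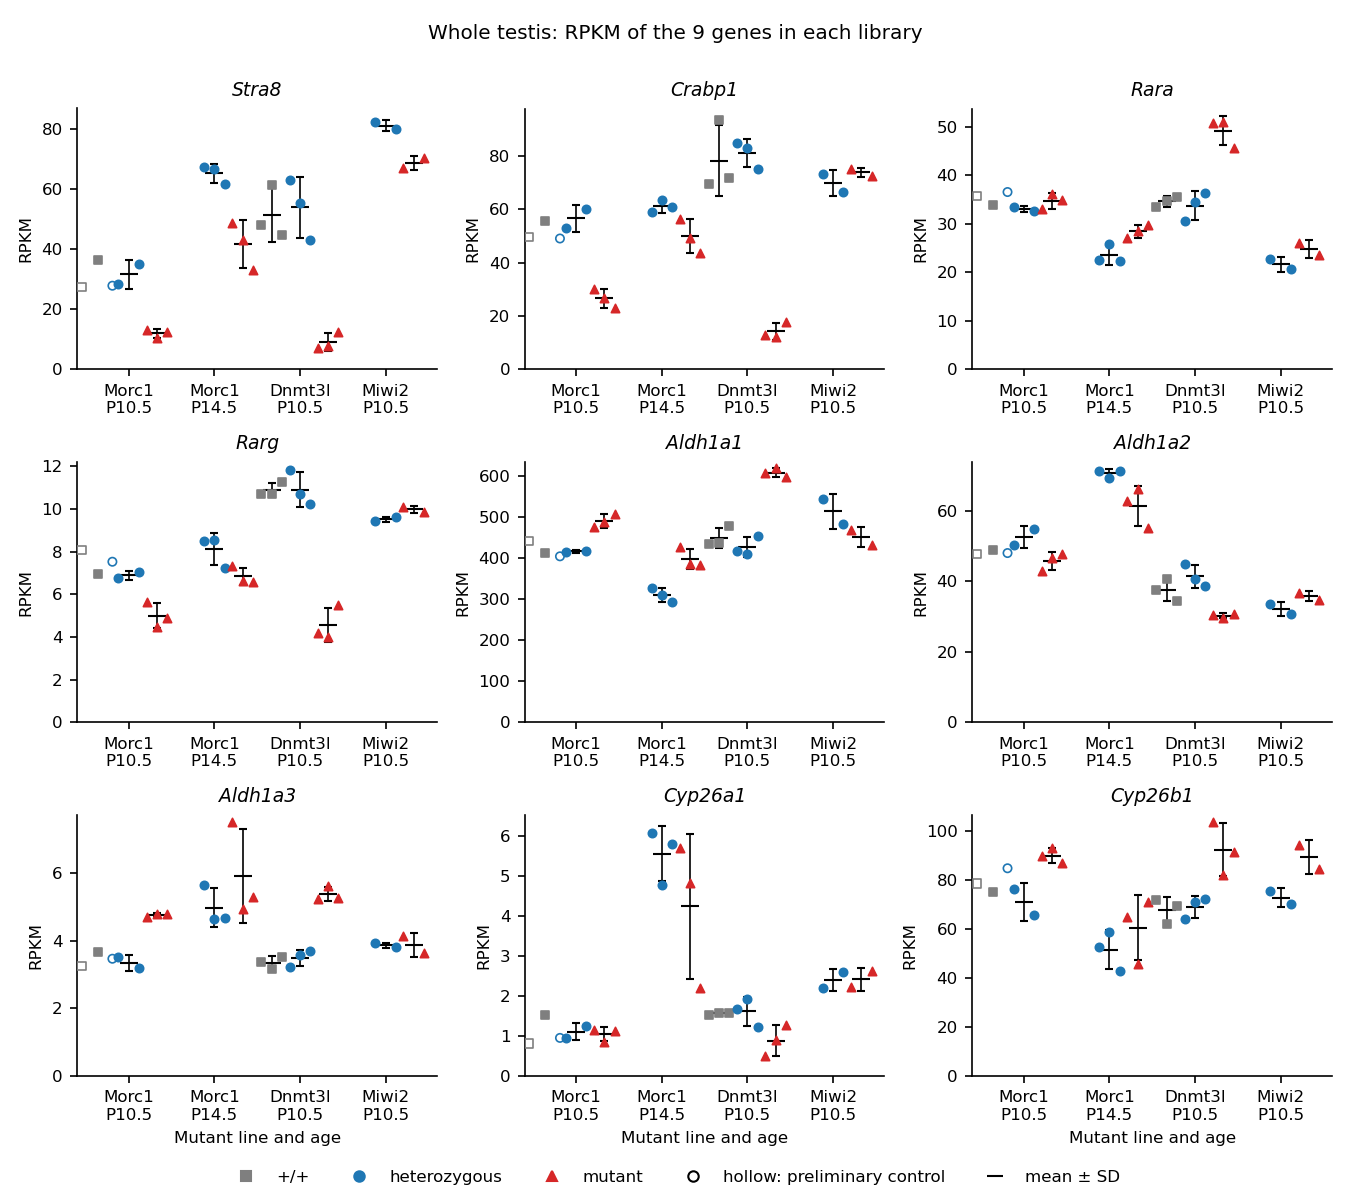
Level in RPKM of the 9 genes in whole testis, 1 panel per gene, for Morc1 testes of both ages, the Dnmt3l line and the line labelled Miwi2; points are libraries (squares, wild type; hollow, preliminary controls) and bars are the mean ± SD of each genotype with 2 or more libraries, without the preliminary controls. Stra8 and Crabp1 are lowest in Dnmt3l -/- testis, at 7.12 to 12.4 and 11.9 to 17.8 RPKM.

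Crabp1, the cytoplasmic retinoic acid carrier and known as a gene of premeiotic germ cells, was lower, like Stra8, in Morc1 tg/tg and Dnmt3l -/- testis. At P10.5 the Morc1 line's controls had 55.5, 53.1 and 60.0 RPKM and the preliminary controls 49.7 and 49.0. The mutants had 30.1, 26.7 and 23.1, all below the controls. Crabp1 fell by 1.07 ± 0.09 (adjusted p = 3.73e-05), 52.7% in RPKM. At P14.5 the values were 58.9, 63.6 and 60.8 in controls and 56.4, 49.3 and 43.7 in mutants. The ranges were apart by little, and the change of -0.29 ± 0.09 (adjusted p = 0.0313) was lost without mutant replicate 2 or 3, or without control replicate 1, 2 or 3 (adjusted p of 0.0557 to 0.0888). Crabp1 rose with age by 0.90 ± 0.09 in mutant testis (5.88e-06) and by 0.12 in control testis, which was not called (0.264), and the difference of the effects was 0.77 ± 0.13 (0.00203). Germ cell marker sums, given above, were lower in the mutants at both ages, and their part in these Crabp1 results was not tested.

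In Dnmt3l -/- testis Crabp1 was 12.7, 11.9 and 17.8 RPKM, against 69.3, 93.6 and 71.9 in wild type and 85.0, 83.0 and 75.0 in Dnmt3l +/- controls. No mutant came near a control. The change was -2.44 ± 0.14 (adjusted p = 1.51e-07), close in size to that of Stra8, and larger than the Morc1 effect by 1.33 ± 0.18 (0.000113). The libraries labelled Miwi2 -/- had 75.0 and 72.5 RPKM and their controls 73.4 and 66.4, which overlapped. In sorted germ cells Crabp1 was present from E16.5 (16.6 and 19.11 RPKM in controls) to P10.5 (38.8, 39.4, 48.7 and 49.7), and it rose by 0.77 ± 0.18 from P2.5 to P10.5 (0.00506). The P10.5 mutants had 33.9, 39.1 and 31.9 RPKM. One mutant lay inside the control range, and the change of -0.42 ± 0.12 (adjusted p = 0.0206) was lost without mutant replicate 1 or 3, without control replicate 3 or 4, and with the replicate block, at adjusted p of 0.0615 to 0.0876.

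Of the synthetic enzymes, Aldh1a2 is the one known for making retinoic acid in germ cells of the maturing testis, and it was the most abundant of the 3 in sorted cells. Control germ cells had 24.0 and 31.3 RPKM in the E16.5 libraries and 19.9 and 19.11 in the E18.5 libraries, then 12.9, 6.45 and 5.04 at P2.5, and 8.47, 6.28, 8.41 and 5.74 at P10.5. Between E18.5 and P2.5, where Stra8 rose, Aldh1a2 fell by 1.49 ± 0.31 (adjusted p = 0.00163), and by 1.42 without E18.5 control replicate 2 (0.00850). At P10.5 the tg/tg cells had 4.38, 4.98 and 5.85 RPKM. Their range overlapped the controls, and the change of -0.59 ± 0.16 (0.0166) was lost without mutant replicate 1 or 2, or control replicate 1 or 3 (0.0618 to 0.0796). In testis Aldh1a2 was lower by 0.34 ± 0.08 in Dnmt3l -/- mice (0.00243), at 30.6, 29.5 and 30.7 RPKM against 34.4 to 45.0 over the 6 controls. In Morc1 tg/tg testis it was not called at P10.5 (42.9 to 47.7 against 49.0 to 54.8 RPKM, adjusted p = 0.117) or at P14.5 (55.0 to 66.1 against 69.3 to 71.3, 0.0665), although the ranges did not overlap at either age.

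Aldh1a3, a low member in these samples, was the 1 member that rose in tg/tg germ cells. The P10.5 controls had 0.911, 1.31, 0.863 and 1.04 RPKM, from 48 to 82 reads, and the mutants 2.08, 2.42 and 2.23, from 113 to 139 reads. All mutants exceeded all controls, with means of 2.24 ± 0.167 (SD, n = 3) and 1.03 ± 0.203 RPKM (n = 4), and Aldh1a3 rose by 1.03 ± 0.23 (adjusted p = 0.0030). At P2.5 the range in mutants (0.0565 and 1.66 RPKM) contained that in controls (0.380 to 0.801). In testis it was higher in Morc1 tg/tg mice at P10.5, at 4.70, 4.79 and 4.81 RPKM against 3.67, 3.52 and 3.18 (0.47 ± 0.08, adjusted p = 0.00304), and in Dnmt3l -/- mice, at 5.24, 5.63 and 5.29 RPKM against 3.17 to 3.69 (0.70 ± 0.08, 1.57e-05). Both of these sets were apart from their controls. Of the macrophage markers listed, Emr1 (0.84), Csf1r (0.60), C1qb (0.57) and C1qa (0.51) were called higher in that Morc1 comparison. Cd68 and Lyz2 were not called in it. In Dnmt3l -/- testis Csf1r (0.41) and C1qb (0.30) were called higher and the rest of these markers were not called. Their part in the Aldh1a3 results was not tested. At P14.5 the mutants had 7.52, 4.95 and 5.29 RPKM and the controls 5.65, 4.64 and 4.67, which overlapped and were not called.

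Aldh1a1 was a gene of the whole testis, with 0 to 6.29 RPKM in sorted germ cells against 293 to 620 in testis. At P10.5 it was 412 (wild type), 415 and 419 RPKM in the Morc1 line's controls and 476, 489 and 509 in tg/tg mice, a rise of 0.26 ± 0.05 (adjusted p = 0.00465). The preliminary controls had 443 and 405 RPKM, also below the mutants. At P14.5 the controls had 328, 312 and 293 RPKM and the mutants 428, 386 and 384 (0.37 ± 0.06, 0.00215). In Dnmt3l -/- testis Aldh1a1 was 609, 620 and 599 RPKM against 411 to 479 over the 6 controls (0.52 ± 0.06, 2.74e-05). The mutants were thus above the controls in all 3 comparisons. Aldh1a1 was 469 and 434 RPKM in the libraries labelled Miwi2 -/- and 545 and 485 in their controls, which was not called (0.263). Summed levels of 9 Sertoli cell markers moved the same way as Aldh1a1 in the first 3 comparisons: 3901 to 4373 RPKM in Morc1 tg/tg testis against 3469 to 3729 at P10.5, with 4 of 9 called higher, 4286 to 5254 against 3262 to 3599 at P14.5, with 9 of 9 called higher, and 4367 to 4799 against 2772 to 3794 in Dnmt3l -/- testis, with 7 of 9 called higher. Their part in the Aldh1a1 results was not tested.

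Both degrading enzymes were low in sorted germ cells, and they differed in their testis level and its change with age. Cyp26b1, the enzyme of the somatic testis cells, was at most 2.85 RPKM in sorted germ cells and 42.9 to 104 in testis. In P10.5 testis of the Morc1 line it was 75.2, 76.4 and 65.5 RPKM in controls, 78.5 and 84.8 in the preliminary controls and 89.9, 92.9 and 86.7 in mutants. The mutants were above all 5 control libraries, and by 0.33 ± 0.06 in the fit (adjusted p = 0.00748), which left out the preliminary ones. In Dnmt3l -/- testis it was 104, 81.8 and 91.5 RPKM against 62.0 to 72.0 (0.48 ± 0.08, 0.000448), again without overlap. At P14.5 the mutants had 64.7, 45.6 and 71.1 RPKM and the controls 52.6, 58.7 and 42.9, which overlapped. Summed levels of 7 peritubular and stromal genes were 1162 to 1245 RPKM in Morc1 tg/tg and 1010 to 1197 in control testis at P10.5, with 2 called higher, and 1093 to 1384 against 834 to 1080 in the Dnmt3l line, with 5 called higher. Their part in the Cyp26b1 results was not tested. The libraries labelled Miwi2 -/- had 94.4 and 84.5 RPKM against 75.5 and 70.1. The difference of 0.28 ± 0.08 was not called by edgeR (0.115) but was by DESeq2 (0.0324) and with the replicate block (1.2e-06). As for Stra8, the block fit leaves little from which to estimate spread.

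Cyp26a1, a gene that retinoic acid is known to induce, was close to the limit of detection in germ cells, with 10 to 32 reads per library at P10.5. In testis the P14.5 samples stood out. The controls had 6.08, 4.77 and 5.79 RPKM at P14.5 and 1.52, 0.950 and 1.25 at P10.5, a rise of 2.16 (adjusted p = 1.34e-05), and the mutants rose by 2.02. Cyp26a1 had the largest rise of any member with age in both genotypes in the main fit. In mutants its lead over Stra8 was small: across the alternatives Cyp26a1 rose by 1.76 to 2.36 and Stra8 by 1.67 to 1.96. In Dnmt3l -/- testis it was 0.480, 0.885 and 1.26 RPKM against 1.22 to 1.93 in controls, a fall of 0.80 ± 0.24 (0.0136) with overlapping ranges. The call was lost without mutant replicate 1, where the change was -0.52 (0.0515). It was also lost with Dnmt3l +/- mice as the only controls, where the change was -0.82 (0.0629).

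The receptors were called in opposite directions in Dnmt3l -/- testis, while in Morc1 tg/tg testis Rarg alone was called at P10.5 and Rara alone at P14.5. Rarg is the receptor known to mediate the retinoic acid response of undifferentiated spermatogonia. In the Morc1 line at P10.5 it was 6.96, 6.75 and 7.03 RPKM in controls, 8.08 and 7.53 in the preliminary controls and 5.63, 4.49 and 4.88 in tg/tg mice, a change of -0.45 ± 0.09 (adjusted p = 0.00546). In Dnmt3l -/- testis it was 4.20, 4.01 and 5.50 RPKM against 10.2 to 11.8, a change of -1.21 ± 0.10 (1.46e-06). The mutants were below every control in both lines, and the Morc1 effect was smaller than the Dnmt3l effect by 0.71 ± 0.13 (0.00175). Germ cell marker sums, given above, were lower in these mutant testes too, and their part in the Rarg results was not tested. At P14.5 the values of 7.32, 6.63 and 6.59 RPKM against 8.52, 8.57 and 7.24 overlapped and were not called (0.0565). In sorted P10.5 cells Rarg was 5.80, 6.20 and 4.36 RPKM in mutants and 7.35, 6.18, 6.99 and 7.16 in controls, a change of -0.42 ± 0.14 (0.0403). These ranges overlapped, and the call was lost without mutant replicate 1 or 3, without control replicate 1, 3 or 4, and with the replicate block (0.0507 to 0.184).

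Over control germ cell stages Rarg dipped at P2.5, with 0.453, 2.37 and 4.48 RPKM from 6, 71 and 142 reads, between 10.6 and 9.55 at E18.5 and 6.18 to 7.35 at P10.5. It fell by 2.17 ± 0.43 into P2.5 (0.00106), or by 2.11 without E18.5 control replicate 2 (0.00393), and rose by 1.73 ± 0.38 after it (0.00308). The size of both steps turned on the P2.5 controls: without replicate 1, which had the 6 reads, the fall was -1.72 and the rise 1.32, and without replicate 3 they were -2.82 and 2.37, all still called. Rara, which is expressed in Sertoli cells as well as in germ cells, was higher in the mutant testes at some ages. It was 50.7, 51.0 and 45.7 RPKM in Dnmt3l -/- testis against 30.5 to 36.3 in the controls, a rise of 0.57 ± 0.07 (2.52e-05), and 27.1, 28.5 and 29.7 against 22.5, 25.9 and 22.3 in the Morc1 line at P14.5 (0.28 ± 0.07, 0.0152). The ranges did not overlap in either set, and the P14.5 call was lost without mutant replicate 3 or control replicate 1 or 3 (0.0594 to 0.0706). Sertoli cell marker sums, given above, were higher in both sets of mutants too, and their part in the Rara results was not tested. At P10.5 the tg/tg testes had 32.9, 36.2 and 34.9 RPKM and the controls 33.8, 33.5 and 32.6, a difference of 0.07 that was not called (0.373). The Morc1 effect on Rara at P10.5 was smaller than the Dnmt3l effect by 0.55 ± 0.09 (adjusted p = 0.000986), and so was that on Aldh1a1, by 0.31 ± 0.08 (0.0161), which was lost without mutant replicate 1 of either line (0.0547 and 0.0752). In sorted P10.5 germ cells Rara was 13.1, 15.0 and 9.46 RPKM in mutants against 9.48 to 13.8, with a fitted difference of 0.00 (0.984).

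**Figure D3:**
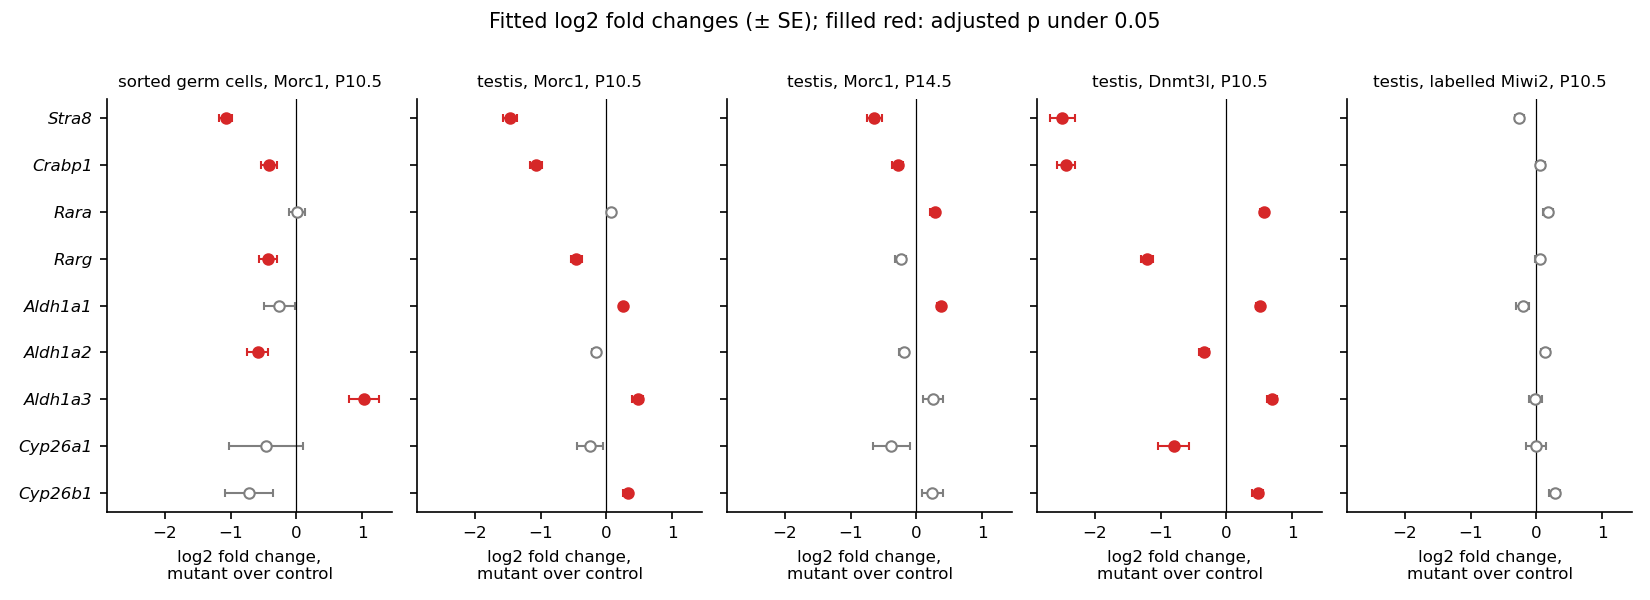
Log2 fold change of mutant over control (x axis, ± SE derived from the edgeR F statistic) for each of the 9 genes in P10.5 germ cells and each mutant testis comparison. Filled red points have an adjusted p under 0.05. Stra8 lies at -1.08 in P10.5 germ cells and at -1.46, -0.64 and -2.49 in P10.5 Morc1, P14.5 Morc1 and Dnmt3l testis.

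Counted over the list, P10.5 tg/tg testis had 6 of 9 members called, 3 higher and 3 lower, where 15.3% of all genes were called (6.08% higher and 9.26% lower), and 7 members with ranges apart against 35.4% of genes. At P14.5 these counts were 4 called, 2 in each direction, against 34.8% (14.8% higher and 20.1% lower), and 5 with ranges apart against 49.3%. The P14.5 count was 2 without control replicate 1 or mutant replicate 3. Dnmt3l -/- testis had all 9 called, 4 higher and 5 lower, against 53.9% (24.9% and 29%), and 8 with ranges apart against 44.6%. The libraries labelled Miwi2 -/- had 0 called by edgeR against 1.23%, with 3 members at an unadjusted p under 0.05, 2 called by DESeq2 and 6 with ranges apart against 52.1%. In that comparison and at P14.5 the share of members with ranges apart was near that of all genes. The members' median log2 fold changes were -0.15, -0.19 and -0.34 in the first 3 comparisons and 0.05 in the last, with medians over all genes between 0.00 and 0.01 in all 4. With age, 8 of 9 members changed between P10.5 and P14.5 in control testis (5 higher and 3 lower, against 57.6% of genes, 29.6% higher and 27.9% lower) and 8 of 9 in mutant testis (43.8%). The mutant comparison at each age uses the same libraries as these age comparisons.

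Since germ cell genes also fell in the mutant testes, Stra8 and Crabp1 were set against Ddx4, the germ cell helicase, within each library, a readout chosen after the data were seen and given without a test. The ratio of Stra8 to Ddx4 RPKM at P10.5 was 0.285 to 0.369 in Morc1 tg/tg testis and 0.596 to 0.848 in its controls, and 0.223 to 0.329 against 0.615 to 0.861 in the Dnmt3l line. Crabp1 over Ddx4 was 0.691 to 0.799 against 1.12 to 1.29 in the Morc1 line and 0.351 to 0.471 against 1.04 to 1.31 in the Dnmt3l line. The mutants were thus below the controls for both genes in both lines, and the same held with each other germ cell gene of the marker list in place of Ddx4. These ratios follow from the fold changes, since Stra8 and Crabp1 fell more than any of the markers. They cannot tell fewer cells of a stage from less RNA per cell. At P14.5 the outcome depended on the germ cell gene chosen. The Stra8 to Ddx4 ratio was 0.730 to 1.04 in mutants and 0.634 to 0.855 in controls, which overlapped. Over the 8 genes the Stra8 ratios overlapped for 5, were lower in the mutants for Tex19.1 and Dppa4, and were higher for Mov10l1. With Tex19.1 the mutants had 0.747 to 1.16 and the controls 1.43 to 1.65. The Crabp1 to Ddx4 ratio was 0.963 to 1.20 in mutants and 0.625 to 0.814 in controls. It was higher in the mutants for 5 of the 8 genes, lower for Tex19.1 and overlapping for the other 2.

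**Figure D4:**
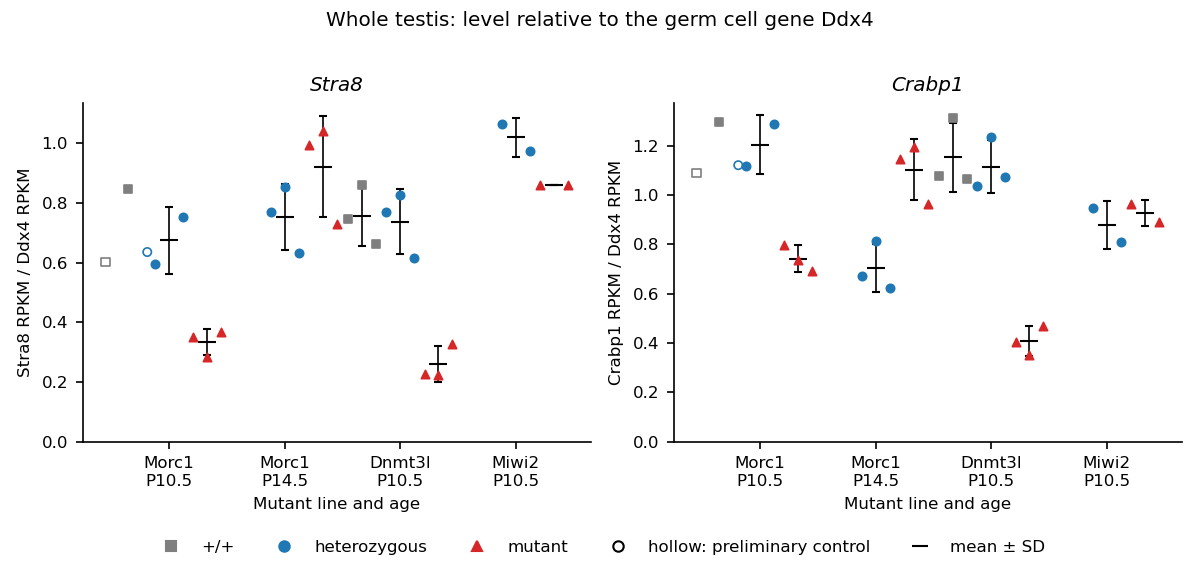
Ratio of Stra8 (left) and Crabp1 (right) RPKM to Ddx4 RPKM in each whole-testis library, by line, age and genotype (squares, wild type; hollow, preliminary controls), with the mean ± SD of each genotype with 2 or more libraries. At P10.5 the Morc1 tg/tg and Dnmt3l -/- libraries lie below their controls for both genes, while at P14.5 the Stra8 ratios to Ddx4 overlap and the Crabp1 ratios to Ddx4 of the mutants are higher.

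The other 25 retinoid genes listed, which carry, store and oxidise vitamin A or encode further receptors, had 4 members called in sorted germ cells at P10.5 and none before. None of the 24 tested at E16.5, the 21 at E18.5 or the 21 at P2.5 was called. At P10.5, 1 rose and 3 fell of 18 tested, where 12.2% of all genes were called, with a median of -0.24. Rbp4, the plasma carrier of retinol, was 8.97 to 14.7 RPKM in tg/tg cells against 16.7 to 23.2 in controls, a fall of 0.77 ± 0.15 (0.00099). Stra6, the cell-surface receptor for RBP4, named outside the rule for named genes to complete the count, fell by 1.27 (0.015), from 17 to 51 reads per mutant library against 55 to 120, with overlapping RPKM ranges. Rarb, a receptor gene that retinoic acid is known to induce, had no read in any of the 3 mutants and 5 to 14 reads in each control. Setting a floor of 3 counts for the mutant group put the control share of reads 11.3-fold above that floor. This figure takes the control reads as exact and holds no spread between mice. Rarb passed the low-count filter only through its control reads, and the 3 genes that fell include it. Adh5, an alcohol dehydrogenase, rose by 0.30 (0.045).

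In testis Rbp4 fell in both lines: by 0.69 at P10.5 (4.99 to 5.76 against 7.67 to 9.62 RPKM, adjusted p = 0.0019) and 0.73 at P14.5 in Morc1 tg/tg mice, and by 2.14 in Dnmt3l -/- mice. It was the 1 retinoid gene called of 21 in P10.5 Morc1 testis, where 15.3% of all genes were called. At P14.5, 5 rose and 2 fell of 21, a share near the 34.8% of all genes, with Rarb up by 1.34 (0.520 to 1.19 against 0.315 to 0.410 RPKM), and in Dnmt3l -/- testis 8 rose and 5 fell of 21, where 53.9% of all genes were called. The Rarb differences thus had opposite signs in P14.5 Morc1 testis and in Dnmt3l -/- testis, where it fell by 1.06, and the difference between them was not tested. In the libraries labelled Miwi2 -/- 1 of 22 was called, Adh5, lower by 0.38 (0.038), where 1.23% of all genes were called. The list's medians were 0.10, 0.08, 0.09 and -0.14 in these 4 comparisons.

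Genes of spermatogonial differentiation and meiotic entry, 13 besides Stra8, changed in 1 direction where they were called in the mutants. This list and the next were chosen with earlier results of these data known. In P10.5 tg/tg germ cells 8 fell, 0 rose and 5 were not called, with a median of -0.41, where 5.79% of all genes fell and 6.43% rose. Cell type markers also moved in these sorted cells, as given above, and their part in the counts of both lists was not tested. Prdm9, which places meiotic recombination, was 3.40 to 4.27 RPKM against 8.70 to 10.2, a fall of 1.39, and Rec8, the meiotic cohesin, was 2.16 to 2.61 against 3.84 to 6.30, a fall of 1.20. Of 8 genes of undifferentiated spermatogonia or of Stra8 repression, 4 rose, 0 fell and 4 were not called in the same cells, with a median of 0.40: Gfra1 by 0.47, Zbtb16 by 0.41, Lin28a by 0.40 and Ret by 0.35. In Morc1 tg/tg testis all 13 differentiation genes fell at P10.5 (median -0.98), where 9.26% of all genes fell, and 11 fell at P14.5 (-0.94), where 20.1% did. All 13 fell in Dnmt3l -/- testis (-1.69), where 29% of all genes fell. The germ cell marker sums given above were lower in these testes too, and their part in these counts was not tested. The undifferentiated list had 0 higher and 1 lower, 2 and 1, and 2 and 4 in the same comparisons, where 15.3%, 34.8% and 53.9% of all genes were called. Of the 4 that rose in the sorted cells, Lin28a fell by 1.23 and Zbtb16 by 1.18 in Dnmt3l -/- testis. Gfra1 rose by 0.55 there and Ret was not called. In the libraries labelled Miwi2 -/- 0 of these 13 and 0 of the 8 were called, as in tg/tg germ cells before P10.5. From P2.5 to P10.5 in control germ cells, 7 of the 13 differentiation genes rose and 3 fell, and 1 of the 8 undifferentiated genes rose and 4 fell, where 27.6% of all genes were called.

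Across libraries, the genes whose levels ran most like a member were ranked by Pearson's r of log2(RPKM + 0.1). This is a description over libraries that share stage, genotype and preparation. Only members with a mean of at least 1 RPKM were ranked, which left out Cyp26a1, Cyp26b1 and Aldh1a3 in the germ cells. Over the 20 germ cell libraries and 12869 genes, Stra8 was most like Sec23b, Asf1b and Xpo6 (r = 0.97 for each), Crabp1 was most like 1700048O20Rik (0.95), and Aldh1a2 was most like Mon2 and Hsf3 (0.96 for each). Over the 27 testis libraries and 12556 genes, Stra8 was most like 5730494M16Rik and Esco2 (0.98 for each), Crabp1 most like Galnt12 (0.99), Rarg most like Ube1y1 (0.98) and Rara most like Bcar1 (0.98). No member was among the 3 genes most like another member that was ranked.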

How the data were processed

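Whole-testis and sorted germ cell RNA-Seq libraries were analysed. The authors trimmed reads, removed ribosomal reads, kept reads mapping to a single place in mm9 and counted them over genes with HTSeq; the submitters' processing notes name Bowtie, HTSeq and mm9, without versions. The deposited tables give read counts per gene, which are not normalized, and RPKM, which the authors scaled to exon length and library size. HTSeq was run by the authors at its default settings, under which only reads assigned to the gene's own strand are counted. Whether the library kits kept strand was not checked, so the counts may not be of sense transcripts alone. Rara is the 1 member that overlaps another listed gene.

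Counts were tested here with edgeR 4.0.16 in R 4.3.3 (TMM, filterByExpr, quasi-likelihood F test), in 1 fit of the groups each comparison needs, with p-values adjusted after Benjamini and Hochberg across every gene in the fit, at a threshold of 0.05. Scripts were checked on simulated data. Alternatives were RLE size factors, DESeq2 1.42.0, no low-count filter, the replicate number as a block, other control sets and each library left out in turn; a library then alone in its group was assumed to vary like the other groups. Each library came from 1 mouse, so p-values measure the spread between mice. No pair of libraries within a group agreed within sampling noise (38 pairs tested), and pairs across groups were not tested. The preliminary controls entered as an alternative.

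The members and gene lists were chosen with earlier results of these data known. Named from each list were up to 4 called genes per comparison with the largest fold change among those whose groups did not overlap; the genes most like a member were the 3 with the highest r, at a mean of at least 1 RPKM. List genes without a match (Gm4969 and Rhox5) were left out. The small RNA, methylation, ChIP and ATAC libraries were not used.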

Additional observations from a re-analysis of the deposited data

Results flagged for a closer look

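In testis the Morc1 effect differed with age for Stra8, by 0.81 on the log2 scale (adjusted p = 0.00904), and for Crabp1, by 0.77 (0.00203), both weaker at P14.5. At P10.5 the Morc1 and Dnmt3l effects differed for Stra8 by 0.98 (0.0102), Crabp1 by 1.33 (0.000113), Rarg by 0.71 (0.00175), Rara by -0.55 (0.000986) and Aldh1a1 by -0.31 (0.0161), each further from 0 in the Dnmt3l line. In germ cells the Morc1 effect on Stra8 differed between P10.5 and P2.5 by -1.26 (0.0119), in a comparison added after the data were seen. These p-values are from interaction terms fitted in edgeR. Among the P10.5 germ cell controls and the Dnmt3l line's controls, the sets of libraries large enough to test, no member had a sample far from the others (18 tests).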

How the results depend on the processing

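Of 55 calls of a member in a comparison, 45 held under every alternative and 10 were lost under at least 1. The 6 calls in P10.5 Morc1 testis and the Stra8 calls in P10.5 germ cells, P14.5 testis and Dnmt3l testis held throughout. Deviations of same-numbered libraries correlated with r from -0.43 to 0.35. In no comparison with 3 or more pairs did every pair exceed 0.1, so the numbers were not taken as pairs. The Miwi2 pairs correlated at 0.32, which is 1 value, since with 2 libraries per group both pairs must give the same r. Which libraries share a litter was not given in the labels. With the replicate block the members called were 3 in place of 5 in P10.5 germ cells, 5 in place of 0 in the libraries labelled Miwi2, and 0 in place of 1 for the P10.5 against P2.5 germ cell effect. DESeq2 called 2 members, Stra8 and Cyp26b1, in the libraries labelled Miwi2. With each library left out in turn the counts were 2 to 5 in P10.5 germ cells, 0 to 1 in E18.5 germ cells, 2 to 5 in P14.5 testis, 0 to 1 for Miwi2, 0 to 5 from E16.5 to E18.5, 3 to 8 from E18.5 to P2.5 and 1 to 2 for the P10.5 against P2.5 effect. Leaving out a library turned 3 changes that were then called, each without E18.5 control replicate 1, where the remaining E18.5 control had no Cyp26b1 read: the change from E16.5 to E18.5 ran from -1.67 to 1.26 for Stra8 and from -8.34 to 1.69 for Cyp26b1, and from E18.5 to P2.5 from -1.55 to 8.50 for Cyp26b1. It was also only without this library that Cyp26b1 was called in E18.5 tg/tg germ cells (8.79). Aldh1a1 rose from E18.5 to P2.5 by 2.62 (adjusted p = 0.0234), a call lost with the block (0.0739) and without E18.5 control replicate 2 (0.0738) or P2.5 control replicate 3 (0.0801). The cause of these shifts was not tested. Counts of 6 to 32 reads behind Cyp26a1 and the P2.5 Rarg minimum limit what can be said of them.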
